A study of Homo sapiens with 6 samples.

Results

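Receptor chains, signal transducers and interferon regulatory factors (IRFs), the proteins that carry an interferon signal from the cell surface to the genome, were compared between KM12SM and SW620 cells. KM12SM, derived from the colorectal cancer line KM12, forms metastases in the liver, and SW620 was established from a lymph node metastasis of a colorectal cancer. The paper gives DMEM with foetal bovine serum and antibiotics as the growth medium of both lines, and names no treatment before RNA isolation. Total RNA was hybridised to 6 Clariom S arrays, 3 for each line, and each line stands for 1 tumour. Members were taken by gene symbol from a list of 9, namely IFNAR1, IFNAR2, IFNGR1, STAT2, IRF1, IRF3, IRF7, IRF9 and RIGI. The probe annotation named a probe set for 8 of these, out of 17687 named genes. The signal of STAT2 was not analysed here. Values are RMA log2 signals, so that a difference of 1 is a 2-fold change of signal. RNA replicates are described as independent in the supplementary methods, but separate cultures are not stated. The p-values therefore cover only how far these samples lie apart, and that spread may be technical.

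Type I interferons bind the receptor pair IFNAR1 and IFNAR2, interferon-gamma binds IFNGR1 and IFNGR2, and interferon-lambda binds IFNLR1 and IL10RB. The kinases JAK1, JAK2 and TYK2 sit on these chains and phosphorylate STAT proteins. IRF9 joins STAT2 in the complex ISGF3, which binds the interferon-stimulated response element (ISRE). Interferon-gamma acts mainly through another element, the gamma-activated sequence (GAS). RIGI detects viral RNA in the cytosol and acts through the adaptor MAVS and the kinase TBK1 on IRF3 and IRF7, which switch on interferon genes. Several of these genes, among them IRF1, IRF7, IRF9, STAT2 and RIGI, are themselves induced by interferon.

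Of the 8 measured members, IRF9 and RIGI were higher in KM12SM, IFNAR1 was lower, and 5 did not pass the test. The test was limma over all 21448 probe sets, two-sided, with a gene called at a Benjamini-Hochberg adjusted p under 0.05. By that rule 25% of all probe sets were called (5362 of 21448; 12.6% higher and 12.4% lower in KM12SM), so that the 3 calls among 8 members (37.5%) are 1 more than this share would give. The median log2 difference of the members was 0.16, against 0.01 over all probe sets. The 3 called members had no overlap between the lines and the 5 others overlapped. Of all probe sets, 37.7% had no overlap. Arrays of the same line correlated at r = 0.981 to 0.992 over all probe sets and arrays of different lines at 0.919 to 0.926. The epithelial markers EPCAM, KRT8, KRT18 and KRT19 had mean log2 signals of 10.69 to 12.74 in both lines. Of all 11 colorectal epithelial markers measured, 7 were higher in KM12SM, 1 was lower (VIL1, -0.81) and 3 did not pass. CDH17 (10.55 in KM12SM and 5.60 in SW620), CEACAM5 (11.57 and 6.81) and LGALS4 (10.16 and 6.09), genes of differentiated intestinal epithelium, stood furthest apart, and their part in the differences of the interferon genes was not tested. The leukocyte antigen gene PTPRC, at 3.93 in KM12SM and 3.90 in SW620, lay under the 25th percentile of all probe sets (5.12). Of the 13 leukocyte markers measured, only 4 had a mean under that level, PTPRC among them, and the others did not.

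**Figure D1:**
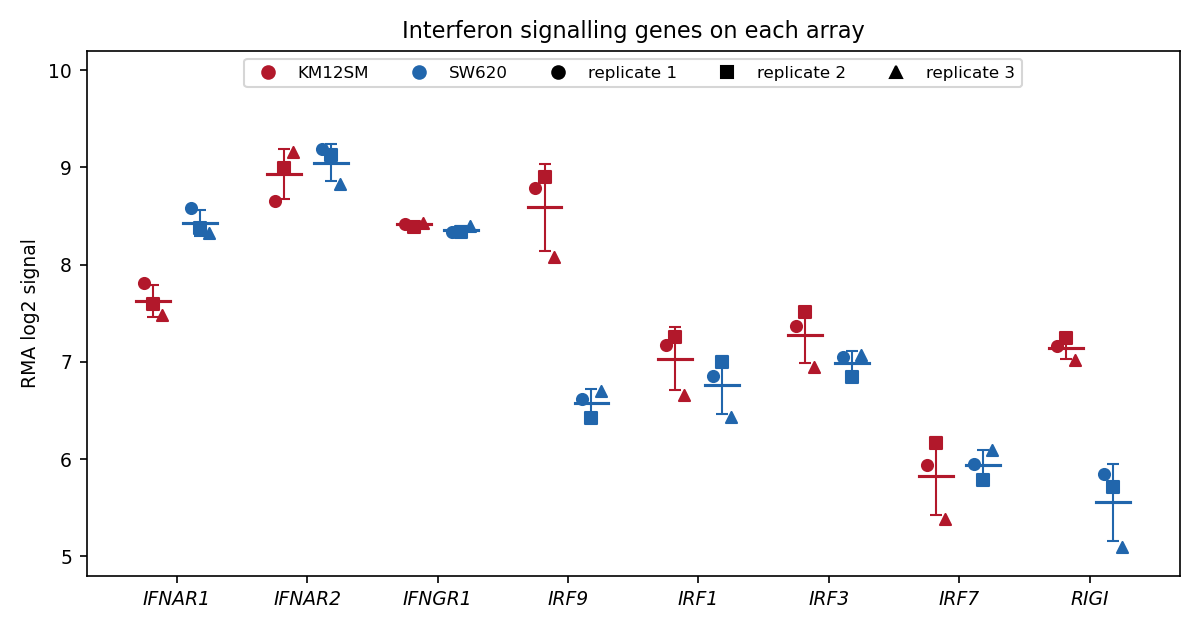
RMA log2 signal (y axis) of the 8 measured members (x axis) on each array, with KM12SM in red and SW620 in blue, a marker shape for each replicate, a bar at the mean and whiskers of 1 SD (n = 3). IRF9 and RIGI lay higher on all KM12SM arrays than on any SW620 array, IFNAR1 lay lower, and the lines overlapped for the other 5.

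IRF9, the DNA-binding part of ISGF3, had the largest difference of the members. Its log2 signal was 8.79, 8.90 and 8.08 on KM12SM replicates 1 to 3 and 6.62, 6.42 and 6.70 on SW620 replicates 1 to 3. The lines did not overlap, and the lowest KM12SM array still lay above the highest SW620 array. The means were 8.59 ± 0.45 (SD, n = 3) and 6.58 ± 0.14 (SD, n = 3), a log2 difference of 2.01 (standard error 0.21, adjusted p = 2.49e-06 from limma) or 4.03-fold. Of all probe sets, 97.0% had a smaller absolute difference. KM12SM replicate 3 was low for IRF9, and without it the difference was 2.27 (adjusted p = 1.13e-06 from limma).

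RIGI, the RNA helicase that senses viral RNA, followed. Its log2 signal was 7.16, 7.25 and 7.02 in KM12SM and 5.85, 5.71 and 5.10 in SW620, again with no overlap. The difference was 1.59 (standard error 0.20, adjusted p = 1.80e-05 from limma), a 3.01-fold higher signal in KM12SM. SW620 replicate 3 was the low array here, and leaving it out brought the difference to 1.36 (adjusted p = 0.000135 from limma).

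The bases before the start sites are shown for the members that hold a motif or were higher, IRF9, IRF1 and RIGI, and for IFIH1, a related RNA helicase sensor that was higher in KM12SM and is shown for its matches, chosen after they were seen. For DHX58, the remaining helicase of the family, no window was found, so that it was not searched and no sequence is shown. Each run holds the 250 bases before the RefSeq gene start (GRCh38.p14), 5′ to 3′ on the strand of the gene, with matches to an ISRE (GAAANNGAAA, or TTTCNNTTTC on the other strand) or a GAS (TTCNNNGAA, which reads the same on both strands) in capitals.
IRF9, chr14:24161015-24161264, plus strand: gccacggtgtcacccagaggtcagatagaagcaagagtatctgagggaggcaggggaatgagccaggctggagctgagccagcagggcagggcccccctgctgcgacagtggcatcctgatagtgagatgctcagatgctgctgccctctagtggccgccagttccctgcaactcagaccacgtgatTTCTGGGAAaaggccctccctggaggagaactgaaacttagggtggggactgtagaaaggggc
IRF1, chr5:132490774-132491023, minus strand: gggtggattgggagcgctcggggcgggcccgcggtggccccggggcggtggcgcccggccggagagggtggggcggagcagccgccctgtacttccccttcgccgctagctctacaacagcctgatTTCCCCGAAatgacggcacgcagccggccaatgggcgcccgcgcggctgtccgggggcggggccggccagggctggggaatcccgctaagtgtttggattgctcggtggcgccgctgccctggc
RIGI, chr9:32526197-32526446, minus strand: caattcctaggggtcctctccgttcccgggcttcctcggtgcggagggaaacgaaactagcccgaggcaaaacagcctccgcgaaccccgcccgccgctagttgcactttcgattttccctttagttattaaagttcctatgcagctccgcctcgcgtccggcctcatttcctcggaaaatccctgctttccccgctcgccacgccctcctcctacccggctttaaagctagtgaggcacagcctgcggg
IFIH1, chr2:162318685-162318934, minus strand: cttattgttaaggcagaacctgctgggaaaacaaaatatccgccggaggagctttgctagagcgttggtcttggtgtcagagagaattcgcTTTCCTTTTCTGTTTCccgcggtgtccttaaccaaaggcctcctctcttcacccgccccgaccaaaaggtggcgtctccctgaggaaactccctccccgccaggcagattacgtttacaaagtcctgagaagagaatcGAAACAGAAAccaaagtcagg

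IRF9 and IRF1 each held 1 match to the GAS letters, TTCTGGGAA at 63 to 55 bases before the start of IRF9 and TTCCCCGAA at 124 to 116 bases before that of IRF1. IRF9 was called and IRF1 was not. IFIH1 held 3 matches to the ISRE letters, at 159 to 150, 153 to 144 and 21 to 12 bases before its start, of which the first 2 overlap each other. RIGI held no match to either, which says only that these letters are not in this window. Windows were found for 6 of the 9 members (IFNAR1, IFNGR1, IRF1, IRF9, RIGI and STAT2, 8 windows in all), with 0 ISRE matches and GAS matches in 2. The window of STAT2 is counted although its signal was not analysed. Among all 35116 windows, 3.02% held an ISRE match and 6.57% a GAS match. A match is a description of the letters and not evidence of binding.

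Among the receptor chains, IFNAR1 was the member lower in KM12SM. Its log2 signal was 7.81, 7.59 and 7.48 in KM12SM against 8.58, 8.38 and 8.33 in SW620, with every KM12SM array below every SW620 array. The difference was -0.80 (standard error 0.17, adjusted p = 0.00225 from limma), a 1.75-fold lower signal. Its partner IFNAR2 gave 8.65, 8.99 and 9.16 in KM12SM and 9.19, 9.13 and 8.83 in SW620. The lines overlapped and the difference of -0.12 did not pass (95% confidence interval -0.51 to 0.28, adjusted p = 0.723 from limma). With array weights IFNAR2 was at -0.38 and passed (adjusted p = 0.0196 from limma). The estimation of these weights did not converge, and with them 5050 of all probe sets were called higher and 5028 lower. Without weights these counts were 2708 and 2654, so that passing with array weights, here and below, is a less strict result. IFNGR1, the ligand-binding chain for interferon-gamma, was the member with the least spread, at 8.42, 8.39 and 8.43 in KM12SM and 8.34, 8.34 and 8.40 in SW620. Its difference was 0.05 (95% confidence interval -0.29 to 0.39, adjusted p = 0.859 from limma), and the lines overlapped.

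Of the other receptor chains and the kinases, 6 were measured (IFNGR2, IFNLR1, IL10RB, JAK1, JAK2 and TYK2). JAK2 and IFNLR1 were higher in KM12SM, IFNGR2 was lower and 3 did not pass, so that 3 of 6 were called where 25% of all probe sets were. JAK2, a kinase of the interferon-gamma receptor, had log2 signals of 6.37, 6.50 and 6.22 in KM12SM and 5.07, 5.03 and 4.84 in SW620. The difference was 1.38 (standard error 0.17, adjusted p = 1.21e-05 from limma), with no overlap. The SW620 mean of 4.98 lay under the 25th percentile of all probe sets, so that background limits the fold. IFNLR1, the ligand-binding chain for interferon-lambda, had 7.77, 7.85 and 7.64 against 6.88, 6.57 and 6.51, a difference of 1.10 (standard error 0.17, adjusted p = 0.000155 from limma). It too had no overlap. IFNGR2, the signalling partner of IFNGR1, had 9.26, 9.54 and 9.50 against 10.21, 10.24 and 9.89 and differed by -0.68 (adjusted p = 0.00861 from limma). The call did not hold when KM12SM replicate 1 (adjusted p = 0.0586 from limma) or SW620 replicate 1 (adjusted p = 0.0506 from limma) was left out, or with treat against a 1.2-fold change (adjusted p = 0.0897 from limma). JAK1, which serves all of these receptors, had a difference of 0.07 (95% confidence interval -0.34 to 0.49) and IL10RB, the partner of IFNLR1, one of 0.10 (95% confidence interval -0.32 to 0.52). TYK2, the kinase bound to IFNAR1, had 8.59, 8.42 and 8.29 against 7.83, 7.81 and 8.21. Its difference of 0.48 missed the threshold (adjusted p = 0.0605 from limma) although the lines did not overlap, and it passed without SW620 replicate 3 (adjusted p = 0.0186 from limma), without replicate 3 of both lines (adjusted p = 0.00846 from limma), with array weights (adjusted p = 0.000138 from limma) and without dim probe sets (adjusted p = 0.0473 from limma).

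In the RefSeq annotation (GRCh38.p14), IFNAR2, IL10RB, IFNAR1 and IFNGR2 follow one another in that order among the protein-coding genes of chromosome 21. Within this row of neighbours the log2 differences were -0.12, 0.10, -0.80 and -0.68, so that the last pair was called lower in KM12SM and the first pair was not called. For type I interferon, 1 chain of the receptor was thus lower (IFNAR1), for interferon-gamma the second chain (IFNGR2), and for interferon-lambda the ligand-binding chain was higher (IFNLR1).

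**Figure D2:**
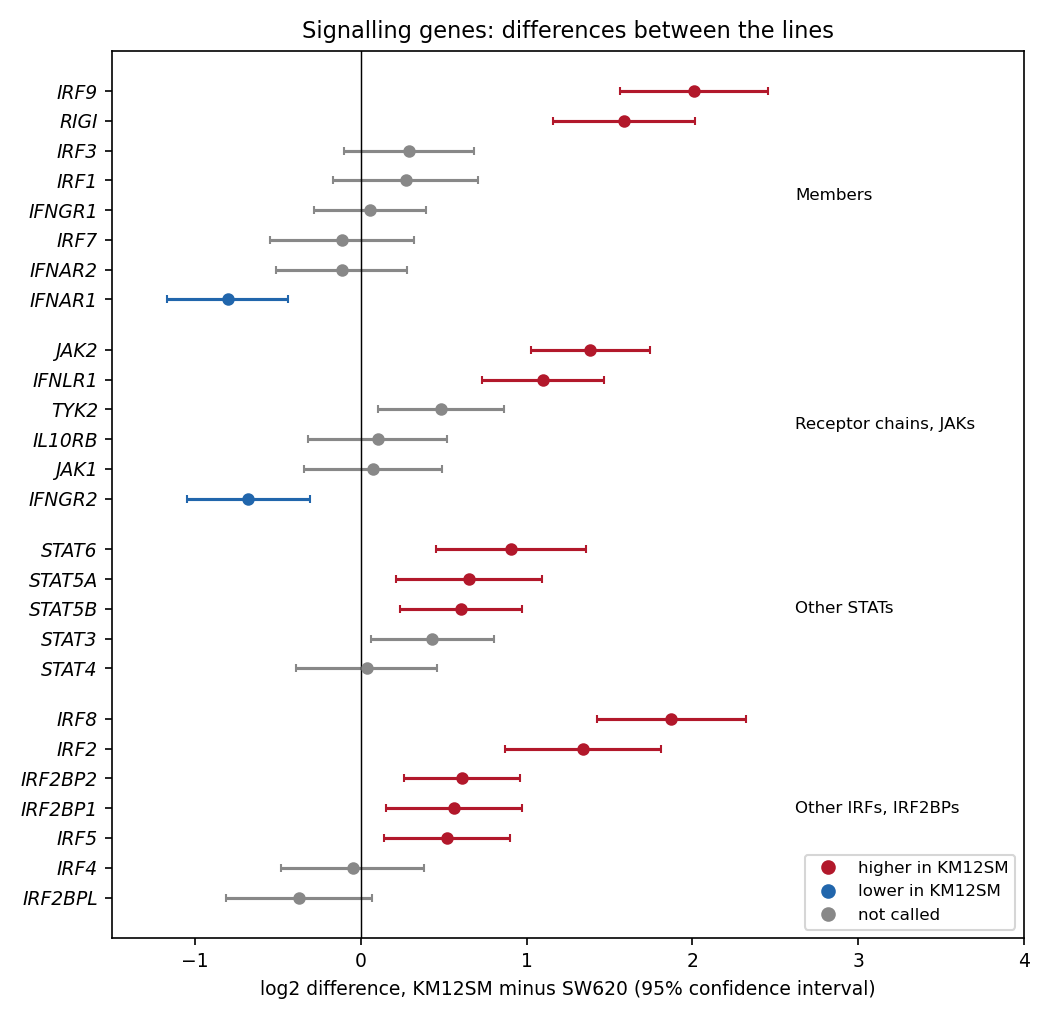
Log2 difference between KM12SM and SW620 (x axis, with its 95% confidence interval from limma) for the 8 members and for the other receptor chains and JAKs, STATs, and IRFs with their IRF2-binding proteins (y axis). Red marks genes higher in KM12SM, blue marks genes lower and grey marks genes that did not pass; IRF9 (2.01) and IRF8 (1.87) had the largest differences shown, with IRF8 and JAK2 near background in SW620.

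The IRF members other than IRF9 did not pass. IRF1, an activator of antigen presentation and antiviral genes, had log2 signals of 7.17, 7.26 and 6.66 in KM12SM and 6.85, 7.0 and 6.43 in SW620. The lines overlapped, with a difference of 0.27 (95% confidence interval -0.17 to 0.71, adjusted p = 0.401 from limma). IRF3, the factor activated downstream of RIGI, had 7.37, 7.51 and 6.95 against 7.05, 6.84 and 7.07. Its difference was 0.29 (95% confidence interval -0.10 to 0.68, adjusted p = 0.302 from limma), and it passed at 0.49 when replicate 3 of both lines was left out (adjusted p = 0.0418 from limma) and at 0.32 with array weights (adjusted p = 0.0356 from limma). IRF7, the amplifier of type I interferon production, had 5.94, 6.16 and 5.38 against 5.95, 5.78 and 6.09. Its difference of -0.11 (95% confidence interval -0.55 to 0.32, adjusted p = 0.758 from limma) turned to 0.11 without KM12SM replicate 3, so that its direction rested on that array.

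KM12SM replicate 3 was the lowest KM12SM array for 6 of the 8 members, among them all 4 IRFs. It lay below the mean of its line by 0.51 for IRF9, 0.45 for IRF7, 0.37 for IRF1 and 0.33 for IRF3 on the log2 scale. Over all probe sets, the deviations of this array from the mean of its line had a median of 0.02 and an SD of 0.24. SW620 replicate 3 showed no such shared shift, being the highest SW620 array for 4 members (IFNGR1, IRF3, IRF7 and IRF9) and the lowest for the other 4 (IFNAR1, IFNAR2, IRF1 and RIGI). The replicate 3 arrays of both lines did share a narrower spread of signal over all probe sets. Their SD was 2.042 in KM12SM and 2.034 in SW620, against 2.115 to 2.146 on the other arrays. What set these arrays apart was not tested.

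**Figure D3:**
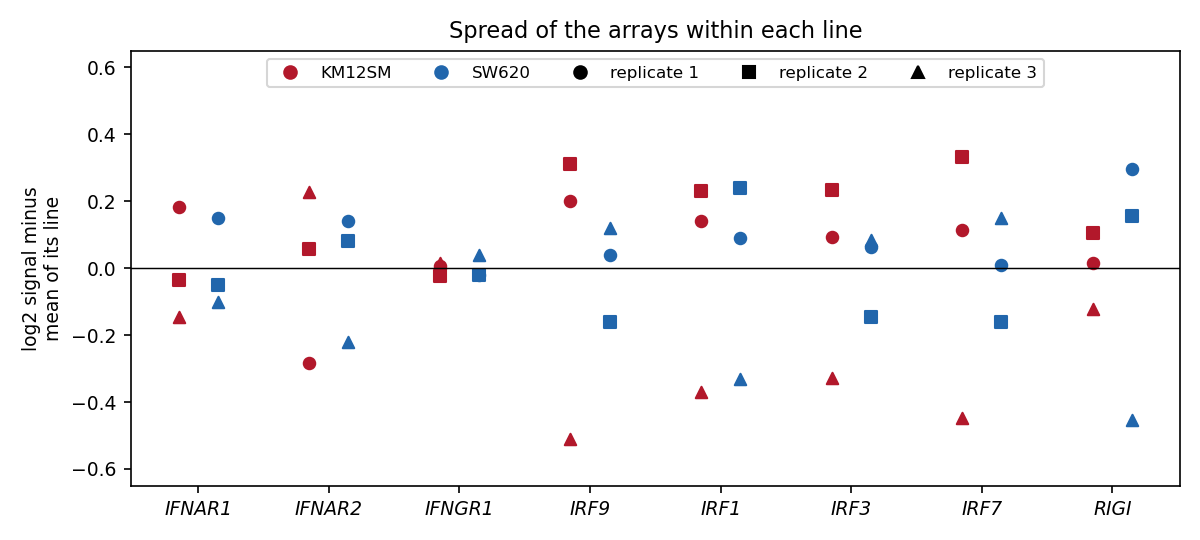
Log2 signal of each array minus the mean of its line (y axis) for the 8 measured members (x axis), with KM12SM in red, SW620 in blue and a marker shape for each replicate. KM12SM replicate 3 (red triangles) lay 0.33 to 0.51 below its line for IRF9, IRF1, IRF3 and IRF7, and SW620 replicate 3 (blue triangles) lay 0.45 below its line for RIGI.

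The test called 3 of 5 other STATs higher in KM12SM and 0 lower, where 12.6% of all probe sets were higher. STAT6, which carries interleukin-4 signals, had log2 signals of 8.41, 8.25 and 7.95 against 7.27, 7.72 and 6.90 and differed by 0.91 (adjusted p = 0.00447 from limma). STAT5A (0.65) and STAT5B (0.60), which carry cytokine and growth hormone signals, were also called, but their near-identical sequences may share probes. Leaving out KM12SM replicate 2, SW620 replicate 1 or SW620 replicate 2 ended the call of STAT5A (adjusted p 0.108 to 0.145 from limma), as did quantile normalization (adjusted p = 0.0645 from limma). For STAT5B the arrays were KM12SM replicate 1, KM12SM replicate 2 and SW620 replicate 1 (adjusted p 0.0603 to 0.078 from limma). Treat against a 1.2-fold change called neither (adjusted p = 0.196 and 0.173 from limma). STAT3, a transducer of interleukin-6, was at 0.43 and did not pass (adjusted p = 0.0873 from limma), though it did without SW620 replicate 2 (adjusted p = 0.0495 from limma) and with array weights (adjusted p = 0.00712 from limma). STAT4, which is dim on these arrays, was at 0.03.

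Of 4 other IRFs measured, 3 were higher (IRF8, IRF2 and IRF5), and of 3 IRF2-binding proteins 2 were, with 0 lower in either group, where again 12.6% of all probe sets were higher. IRF8, a factor of myeloid and B cells, had log2 signals of 7.04, 6.48 and 6.60 in KM12SM and 4.53, 4.74 and 5.23 in SW620. This is a difference of 1.87 (standard error 0.21, adjusted p = 5.14e-06 from limma), with no overlap. Its SW620 mean of 4.83 was under the 25th percentile of all probe sets, and the fold is limited by background there. Of 13 leukocyte markers measured, 2 were higher (CD68 by 0.87 and SPI1 by 0.57), 1 was lower (LCP1, -5.18) and 10 did not pass, and the mean over these markers ran from 5.65 to 5.80 among KM12SM arrays and from 5.97 to 6.09 among SW620 arrays (log2 signal). That order rested on LCP1, and the other 12 markers averaged 5.76 to 5.86 in KM12SM and 5.60 to 5.75 in SW620. Their part in the level of IRF8 was not tested. IRF2, an antagonist of IRF1, had 7.38, 7.38 and 7.44 against 6.0, 6.61 and 5.57, a difference of 1.34 (standard error 0.22, adjusted p = 0.000262 from limma). KM12SM arrays were close together and SW620 arrays spread over more than 1 log2 unit. IRF2BP2 (0.61) and IRF2BP1 (0.56), co-repressors that bind IRF2, and IRF5 (0.52), which acts downstream of Toll-like receptors, were called with smaller differences. IRF2BP2 was no longer called when either KM12SM replicate 1 (adjusted p = 0.0589 from limma) or SW620 replicate 1 (adjusted p = 0.0567 from limma) was left out. For IRF5 this happened on leaving out KM12SM replicate 1, KM12SM replicate 3, SW620 replicate 1 or SW620 replicate 2 (adjusted p 0.103 to 0.152 from limma), and for IRF2BP1 on leaving out any array but KM12SM replicate 3 (adjusted p 0.0669 to 0.177 from limma). Quantile normalization or centring on the median also ended the calls of IRF5 and IRF2BP1 (adjusted p 0.0534 to 0.0677 from limma), and treat against a 1.2-fold change those of all 3 (adjusted p 0.134 to 0.347 from limma). For IRF5 the trend and robust options did so too (adjusted p = 0.0526 from limma). IRF4 (-0.05) and IRF2BPL (-0.37) did not pass, and IRF2BPL passed without KM12SM replicate 3 (adjusted p = 0.0252 from limma), without replicate 3 of both lines (adjusted p = 0.023 from limma) and with array weights (adjusted p = 0.00359 from limma).

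No interferon gene was called. The 21 measured interferon genes (type I, interferon-gamma and interferon-lambda) had log2 signals from 2.75 to 7.43, and 16 of them had a mean under the 25th percentile of all probe sets. Their differences ran from -0.45 to 0.29, with a median of 0.05. IFNB1, the gene that RIGI signalling induces first in most cells, had 4.52, 4.73 and 5.32 against 4.59, 4.62 and 4.68, and IFNG had 3.26, 3.10 and 3.26 against 3.47, 3.49 and 3.69. No detection calls were used, so a level this dim may be background, and the interferon-alpha genes are close copies that can share probes. By limma at an unadjusted p under 0.05, 1 of the 21 (IFNA2) had a difference.

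The sensors that work beside RIGI held the largest differences among the signalling genes measured here. They were listed apart from the effector genes by role, and whether interferon induces them in these lines was not tested. Of 27 measured sensors and adaptors, 8 were higher, 2 lower and 17 did not pass (37.0% called, against 25% of all probe sets). CGAS, the cytosolic DNA sensor, had log2 signals of 8.39, 8.44 and 8.02 in KM12SM and 4.26, 3.81 and 3.86 in SW620, a difference of 4.31 (standard error 0.19, adjusted p = 1.03e-10 from limma). TLR3, the endosomal sensor of double-stranded RNA, had 7.44, 7.46 and 7.87 against 3.44, 3.80 and 3.97, a difference of 3.85 (standard error 0.19, adjusted p = 4.16e-10 from limma). Both genes were dim in SW620, under the 25th percentile of all probe sets, so the folds of their probe sets are limited by the background there.

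The 3 RNA helicases of the RIGI family were all higher in KM12SM. IFIH1, which detects long double-stranded RNA, had 7.65, 7.83 and 7.69 against 5.43, 5.54 and 5.11, a difference of 2.36 (standard error 0.17, adjusted p = 4.09e-08 from limma). DHX58, the family member that regulates the other helicases, had 6.60, 6.90 and 6.59 against 5.88, 6.04 and 5.44, a difference of 0.91 (adjusted p = 0.00199 from limma). Neither overlapped between the lines. Their shared adaptor MAVS had 7.85, 7.91 and 7.62 against 8.45, 8.21 and 7.94, a difference of -0.41 that did not pass (adjusted p = 0.125 from limma), but did without SW620 replicate 3 (adjusted p = 0.0418 from limma) and with array weights (adjusted p = 0.000945 from limma). TBK1, the kinase that activates IRF3, was at 0.06 (adjusted p = 0.872 from limma) and STING1, the adaptor of CGAS, at 0.07 (adjusted p = 0.824 from limma).

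MYD88, the adaptor of most Toll-like receptors, was higher by 1.11 (adjusted p = 0.00231 from limma), the RNA-editing enzyme ADAR by 1.02 (adjusted p = 0.000615 from limma) and the nucleotide hydrolase SAMHD1 by 0.93 (adjusted p = 0.000659 from limma). The lower genes were TLR4, the receptor of bacterial lipopolysaccharide, at -1.53 (adjusted p = 5.99e-06 from limma) and the ubiquitin ligase TRAF6 at -0.92 (adjusted p = 0.00141 from limma). These 5 calls held under all 15 alternatives that were run for each gene.

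Of 17 negative regulators of JAK-STAT signalling, 2 were higher, 3 lower and 12 did not pass, a share of 29.4% called that is near the 25% of all probe sets. SOCS6 was higher by 1.28 (adjusted p = 5.92e-05 from limma) and PIAS3, an inhibitor of STAT3, by 0.64 (adjusted p = 0.0156 from limma), the latter losing its call without KM12SM replicate 2 (adjusted p = 0.0756 from limma) or with treat (adjusted p = 0.142 from limma). SOCS2 (-0.94), the phosphatase PTPN2 (-0.93), which removes phosphate from JAK1, and SOCS4 (-0.86) were lower. PTPN2 had log2 signals of 7.74, 7.77 and 7.62 in KM12SM and 8.72, 8.84 and 8.37 in SW620, with no overlap. SOCS1, an inhibitor of JAK kinases, was at -0.36 (adjusted p = 0.196 from limma) and USP18, which binds IFNAR2 and damps type I signalling, at 0.46 (adjusted p = 0.138 from limma). Neither passed the test.

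Over the 6 lists together, 20 of 83 signalling genes were higher, 6 were lower and 57 did not pass, which is 31.3% called against 25% of all probe sets. Their median difference was 0.10. Of the 83, 23 had a mean under the 25th percentile of all probe sets, 16 of them interferon genes. The 21 interferon genes, with 0 called, count in the pooled share and median, so the pooled share is lower than without them.

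**Figure D4:**
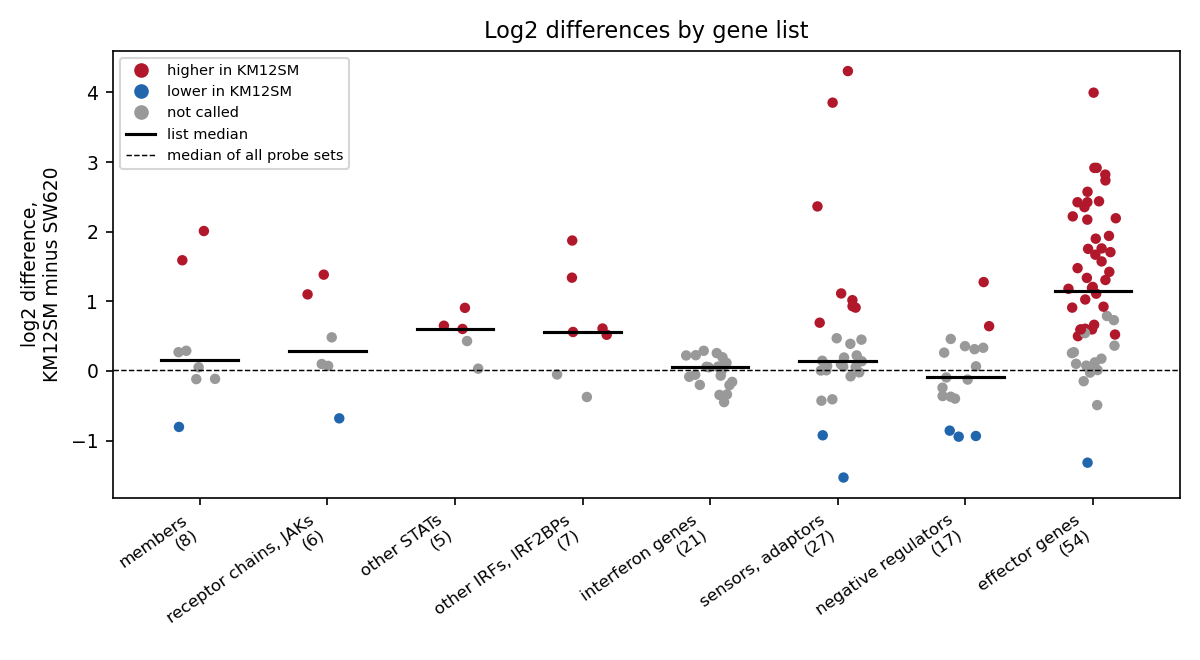
Log2 difference between KM12SM and SW620 (y axis) for each measured gene of 8 lists (x axis, with the number of genes), coloured red where higher in KM12SM, blue where lower and grey where not called. Solid bars are list medians and the dashed line is the median of all probe sets (0.01); the effector genes had a median of 1.15, the members 0.16 and the interferon genes 0.05.

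Set beside the signalling genes, 54 interferon-stimulated effector genes had a median difference of 1.15, with 38 higher, 1 lower and 15 not called (72.2% called), where 12.6% of all probe sets were higher and 12.4% lower. This list was chosen with earlier results of these data known, so that its share called is a description and not an independent result. The largest differences were those of NMI (4.0), a STAT-binding protein, the antiviral GTPase MX1 (2.92), the ISG15-conjugating enzyme UBE2L6 (2.92), the oligoadenylate synthetase OAS1 (2.82), PARP14 (2.74) and tetherin, BST2 (2.57), and the lower gene was IFITM2 (-1.32). NMI and BST2 had SW620 means of 4.34 and 3.70, under the 25th percentile of all probe sets, so that their differences are limited by background and their place in this order is uncertain. On the same arrays the members ran from -0.80 to 2.01, and IRF9 and RIGI were their only calls in the direction of the effector genes. ISRE matches were found in 36 of the 60 effector windows (32 of 45 genes) and in 0 of the 8 member windows, where 3.02% of all windows held one. At that share 8 windows are too few to show that members lack the element. GAS matches were found in 20.0% of the 60 effector windows and in 2 of the 8 member windows, where 6.57% of all windows held one.

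The genes whose pattern lay closest to IRF9, out of 17686 others, were ETHE1, OAS2, DDC, DOC2A and TINAGL1. Likeness was the mean absolute difference over the 6 arrays after each gene was centred on its own mean, and it was 0.0956 for ETHE1, 0.0978 for OAS2 and up to 0.103 for TINAGL1. OAS2, an oligoadenylate synthetase, is the interferon-stimulated gene among them. For IFNAR1 the closest were DDX19A (0.0483), ANKH (0.0561), PITX1, RHEB and PFAS (each 0.0567). The 5 genes near IRF9 differed by 1.96 to 2.18 between the lines and the 5 near IFNAR1 by -0.91 to -0.71. The 6 arrays come from only 2 lines, so these likenesses are a description.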

How the data were processed

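Clariom S human arrays, 3 of KM12SM and 3 of SW620, were assigned by the labels. The values that the authors deposited are on the log2 scale, made by RMA in Transcriptome Analysis Console, and were used without further scaling. For the program version and the genome build, nothing is stated in the sources read. Detection calls were not used, and the number of arrays limits precision (median standard error of a difference 0.183). Of 21448 probe sets, 17709 had 1 symbol and 3739 are unnamed here. No listed gene had several probe sets. The signal of STAT2 was not analysed here.

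Differences are KM12SM minus SW620 from limma 3.58.1 in R 4.3.3 (lmFit and eBayes without replicate block), with Benjamini-Hochberg adjustment over all probe sets. The code was tested on simulated arrays. Members and lists were chosen with earlier results of these data known. Named genes were all members, every measured receptor chain, kinase, STAT and IRF, up to 6 called genes with the largest differences of each other list, and the 5 genes nearest in pattern to the called member with the largest difference in each direction. DHX58, MAVS, STING1, TBK1, TRAF6, SAMHD1, SOCS1, USP18, IFITM2, IFNA2, IFNB1, IFNG, EPCAM, KRT8, KRT18, KRT19, VIL1 and PTPRC were named after their values were seen. Alternatives covered normalization, centring, a filter on dim probe sets, the replicate block, test options, array weights and left-out arrays; for genes other than the members they were added after seeing the data.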

Additional observations from a re-analysis of the deposited data

How the results depend on the processing

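IRF9 and RIGI stayed higher and IFNAR1 stayed lower past the threshold under all 15 alternatives, at log2 differences of 1.86 to 2.33, 1.36 to 1.74 and -0.90 to -0.73. The alternatives were quantile normalization, centring on the median, a filter on dim probe sets, the replicate block, trend and robust options, array weights, probe sets averaged per gene, treat against a 1.2-fold change, each array left out and replicate 3 of both lines left out. Array weights, whose estimation did not converge (SW620 replicate 1 weighted 6.57 and SW620 replicate 3 0.303), called 5050 probe sets higher and 5028 lower, 3 members higher and 2 lower, 30 other signalling genes higher and 13 lower, and 41 effector genes higher. Treat called 1634 higher and 1570 lower, with 13 other signalling genes higher. With arrays left out, 2 to 3 members were higher and 1 lower, 15 to 21 other signalling genes higher and 5 to 9 lower, 31 to 40 effector genes higher and 1 to 2 lower, and 2102 to 2995 of all probe sets higher and 1952 to 3239 lower. Of the effector genes 2 were lower with centring, array weights or the replicate block. Among the members and the named signalling and effector genes with alternatives run (not the interferon genes, markers or genes of like pattern), signs turned only for uncalled ones. With arrays left out these were IRF7 (-0.28 to 0.185), IFNAR2 (-0.34 to 0.025), IL10RB (-0.19 to 0.252), JAK1 (-0.08 to 0.22), STAT4 (-0.113 to 0.225), IRF4 (-0.273 to 0.112), STING1 (-0.0083 to 0.127) and TBK1 (-0.135 to 0.16). With array weights they were IL10RB (-0.174), TBK1 (-0.130) and STAT4 (-0.0005), and with centring STAT4 (-0.01). The cause was not tested.

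The replicate numbers were not taken to pair the arrays, since the supplementary methods describe no pairing. Deviations of same-numbered arrays correlated at 0.058, 0.095 and 0.149, and those of different-numbered arrays at -0.142 to 0.1. These values do not settle whether the arrays were paired. With the replicate block, 2888 probe sets were higher and 2793 lower, and of the members 2 were higher and 1 lower.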
